A study of Mus musculus with 50 samples.

Results

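The 10 genes described here handle iron and haem in mouse cells: Tfrc and Slc11a2 bring iron in, Fth1 and Ftl1 store it, Slc40a1 lets it out, Fech builds haem, Hmox1 and Hmox2 break haem down, and Aco1 and Ireb2 sense iron and control several of the others. They were chosen by name, as 10 of the 19224 gene rows of the deposited count matrix, and all 10 are present in it. The study moved single haematopoietic stem cells (HSCs) into B6-Ly5.2 recipients given 9.0 Gy of irradiation. The donors were B6-Ly5.2 mice with a β-actin-GFP transgene, and each HSC went in together with competing whole marrow of B6-Ly5.2 mice. The labels list 10 samples taken 1 month later, 26 taken 4 months later and 14 taken 12 months later, with 35 of marrow alone and 15 of marrow and spleen. All samples share the transplantation and a c-Kit enrichment, after which cells were sorted one by one on CD201, CD150, CD48, Sca-1, c-Kit and a lineage cocktail, or on GFP, so that blood cells without c-Kit are depleted. GFP cells within 1 recipient descend from 1 transplanted cell, and the competitor marrow and the host's surviving cells can also yield cells. The cell names do not say which sample, month, tissue or sort gate a cell came from, nor whether it is of donor or competitor origin, and neither does any other table used here. The matrix was therefore treated as 1 pooled sample, no comparison between months was made, and no p-value was computed, because cells are not replicates.

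Iron enters most blood-forming cells bound to transferrin through the receptor made by Tfrc, and Slc11a2 (DMT1) carries it out of the endosome. Ferritin, built of the heavy chain Fth1 and the light chain Ftl1, stores it, and Slc40a1 (ferroportin) is the exporter of iron in mammals. Developing red cells take up iron and make haem, and Fech inserts the iron in the last step. Marrow and spleen macrophages take up old red cells, open the haem ring with the inducible oxygenase Hmox1 and return the iron through ferroportin. Hmox2 is the constitutive oxygenase. The iron regulatory proteins Aco1 (IRP1) and Ireb2 (IRP2) bind a hairpin in several of these messages, the iron-responsive element (IRE), when iron is scarce. In a 5′ untranslated region this binding holds back translation, and in the 3′ untranslated region of Tfrc it protects the message from decay.

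The elements found in these genes are shown because they tie the storage, export and uptake genes to the same regulators. A search for a C, any 5 bases, the letters CAGTGN and 5 further bases able to pair with the first 5 (G-U pairs allowed) was run on the transcribed strand of annotated untranslated regions. GENCODE release M21 of the build GRCm38 was used for this. Of 21741 genes with such regions, 160 held a match (0.736%), 31 in a 5′ region and 129 in a 3′ region. Untranslated regions of 9 of the genes were searched, and 4 held a match. All 5 pairs were required, so an element with an imperfect stem would be missed. A gene without a match can therefore still hold an element. Capitals mark the bulged C and the loop letters, and each sequence is given 5′ to 3′ as transcribed.
Fth1, 5′ UTR, chr19:9982732-9982760, plus strand: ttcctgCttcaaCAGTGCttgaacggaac
Ftl1, 5′ UTR, chr7:45459779-45459807, minus strand: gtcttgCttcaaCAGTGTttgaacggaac
Slc40a1, 5′ UTR, chr1:45925465-45925493, minus strand: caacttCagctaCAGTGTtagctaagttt
Tfrc, 3′ UTR, chr16:32631219-32631247, plus strand: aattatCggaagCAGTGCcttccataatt
Tfrc, 3′ UTR, chr16:32631598-32631626, plus strand: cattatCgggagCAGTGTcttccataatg
Tfrc, 3′ UTR, chr16:32631663-32631691, plus strand: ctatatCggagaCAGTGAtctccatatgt
Tfrc, 3′ UTR, chr16:32631710-32631738, plus strand: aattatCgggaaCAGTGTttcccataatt
The ferritin pair shares its arms almost letter for letter, the ferroportin element has different arms around the same loop letters, and Tfrc carries 4 matches in a row. Message levels, which are what was counted, do not show translation, so the action of a 5′ element cannot be read from these data.

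Cells were put into classes by markers counted in the same cell, each at 20 or more CPM (a cell's or class's counts scaled to one common total) there. The classes are 728 cycling cells, 29 erythroid-like cells, 31 cells with both stem and erythroid markers, 36 macrophage-like cells, 32 cells with both stem and macrophage markers, 321 cells of other lineages and, as the common comparison, 2349 non-cycling cells with Procr, the gene of CD201. A further 659 non-cycling cells without enough Procr complete the 4185 cells that had at least 1000 genes and at most 10% mitochondrial counts. The other lineages comprised 86 neutrophil-like, 71 plasma-like, 69 B-like, 53 T-like and 34 dendritic-like cells, with 4 megakaryocyte-like and 4 basophil- or mast-like cells. Median counts per cell were 170026 in cycling cells, 262132 in erythroid-like cells, 98517 in macrophage-like cells, 59043 in other lineages and 123391 in Procr+ non-cycling cells. Levels are CPM of counts summed over a class, with exact 95% Poisson intervals that cover counting error only. A gene is called higher or lower when it is at least 2-fold apart on the log2(CPM + 1) scale and reaches 10 CPM in either class. Call limits were not sharp in the cells: 12 cells had 7 erythroid markers and 14 had 8, the number required, and 26 cells had 7 macrophage markers and 21 had 8.

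Several features of the libraries touch the results and are given first. Macrophage-like cells came from 3 libraries, with 23 of the 36 in library TP56, 10 in Lib1 and 3 in Lib12. For both the macrophage-like and the erythroid-like class, 0 libraries held at least 5 cells of the class and 5 Procr+ non-cycling cells, so class and library cannot be told apart in their ratios; for cells with stem and erythroid markers there was 1 such library. Lib112 to Lib116 held 24 of the 32 cells with stem and macrophage markers, and Lib51 to Lib55 held 19 of the 31 with stem and erythroid markers. The marker levels of the classes follow in part from the class rule, which used the same markers, so they are no separate check of identity. Macrophage-like cells reached 20 CPM for 14 of 15 macrophage markers (30565 CPM in sum, against 115.5 CPM in Procr+ non-cycling cells). The stem cell markers Mecom, Hoxb5, Fgd5, Ctnnal1 and Robo4 were at 0 there. Erythroid-like cells reached 20 CPM for 15 of 15 erythroid markers, but also for 12 of 15 macrophage markers. Of the 29 cells 4 had 8 or more macrophage markers each (2 in TP56, 1 in TP55, 1 in Lib3), the other 25 had 0 to 5, and erythroid-like values are given for those 25 as well. Neutrophil markers summed to 24554 CPM in the cells with stem and erythroid markers and to 23522 CPM in macrophage-like cells, against 2268 CPM in Procr+ non-cycling cells, and their part in the member values was not tested. Of 95 cell numbers 93 recur across libraries, but 0 full cell names do.

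Against Procr+ non-cycling cells, 7 of the 10 genes were higher and 1 lower in macrophage-like cells, where 26% and 31.6% of 9558 genes were called higher and lower. In erythroid-like cells 5 were higher and 1 lower, against 15.6% and 26.6% of 9192 genes. Cells with stem and erythroid markers had 5 higher and 0 lower, against 19.8% and 11.5% of 9482 genes. In cells with stem and macrophage markers 2 were higher and 0 lower, against 10.3% and 6.5% of 9155 genes. Other lineages had 2 higher and 1 lower, against 17.1% and 16.3% of 9451 genes. Cycling cells had 1 higher and 0 lower of 9 genes at the level minimum, against 5.37% and 2.32% of 8787 genes. The median log2 ratio of the members was 1.71 in macrophage-like cells, 1.62 in erythroid-like cells and -0.16 in cycling cells, and that of all tested genes was -0.23, -0.19 and -0.07 in the same 3 classes. The erythroid-like counts and median cover all 29 cells. Without the 4 cells of 8 or more macrophage markers, Hmox1 was lower (-3.63) in place of higher, and Ireb2 was also lower (-1.10). Tfrc, Slc11a2, Slc40a1 and Fech stayed higher and Hmox2 lower, while Aco1, Fth1 and Ftl1 were at 0.39, 0.31 and -0.0005.

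**Figure D1:**
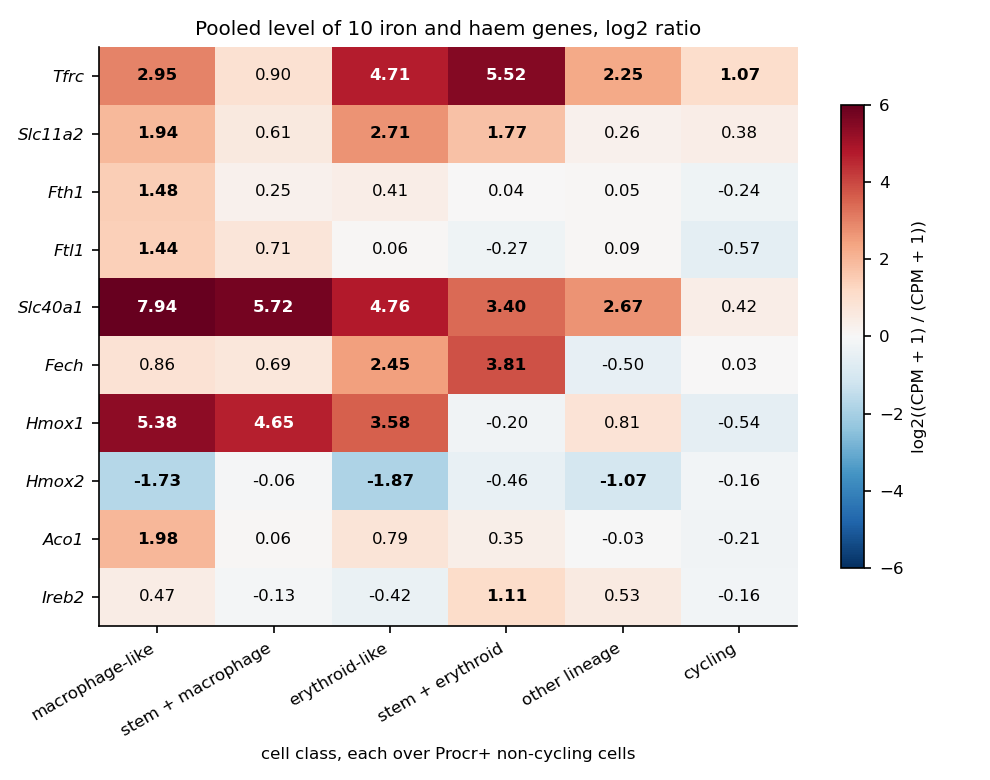
Each cell gives the log2 ratio of pooled (CPM + 1) of 1 gene in 1 cell class over Procr+ non-cycling cells, with red for higher, blue for lower and bold numbers for genes called at least 2-fold apart. Hmox1 and Slc40a1 reach 5.38 and 7.94 in macrophage-like cells, Tfrc and Fech reach 5.52 and 3.81 in cells with stem and erythroid markers, and the cycling column holds 1 call, Tfrc at 1.07.

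Tfrc, the transferrin receptor (GRCm38 chr16:32608920-32632794, plus strand), was highest in the erythroid classes. It stood at 647 CPM (95% interval 629 to 666) in cells with stem and erythroid markers, 368 CPM (354 to 382) in erythroid-like cells, 109 CPM (100 to 118) in macrophage-like cells, 66.3 CPM (63.8 to 68.9) in other lineages, 28.8 CPM (27.9 to 29.6) in cycling cells, 25.3 CPM (21.5 to 29.5) in cells with stem and macrophage markers and 13.1 CPM (12.7 to 13.5) in Procr+ non-cycling cells. Only cycling cells and those with stem and macrophage markers had overlapping intervals in that order. The level with stem and macrophage markers was uneven: 1 cell of Lib116 held 48.4% of the counts. Its 3 libraries with at least 5 cells had 2.33, 2.72 and 70.3 CPM. Of these 1 was higher and 2 were lower than their own Procr+ non-cycling cells. At least 1 Tfrc count was seen in 29 of 31 cells with stem and erythroid markers and in 25 of 29 erythroid-like cells, against 24.5% of Procr+ non-cycling cells. Without the 4 cells of 8 or more macrophage markers, the erythroid-like level was 229 CPM, a log2 ratio of 4.03 against 4.71 with them. The median erythroid-like cell had 139 CPM. Most of these cells also met the cycling rule, 25 of the 29 erythroid-like cells and 24 of the 31 with stem and erythroid markers. Over the cycling class, the erythroid-like log2 ratios were 3.63 for Tfrc, 2.42 for Fech, 2.33 for Slc11a2 and -1.71 for Hmox2, each past the 2-fold limit. Slc40a1 (4.35) and Hmox1 (4.12) were also past it. These ratios over the cycling class include all 29 erythroid-like cells.

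Tfrc was the one member called in cycling cells, at a log2 ratio of 1.07, and it lay just past the 2-fold limit. It was higher in cycling cells in 40 of the 54 libraries with at least 5 cells of both classes and lower in 14. Over libraries with at least 5 cells of the class, the lowest, median and highest levels were 0, 22.5 and 179 CPM in cycling cells and 0, 12.5 and 42.8 CPM in Procr+ non-cycling cells, so the libraries overlap widely. The call also depended on cells without Procr. Cycling cells with Procr had 25.3 CPM, a ratio of 0.90, and were higher in 22 of 41 libraries and lower in 17, while cycling cells without it had 33.2 CPM, a ratio of 1.27, and were higher in 15 of 24. Without Lib22, which with 47 cells held more of the class than any other library, the ratio was 0.995 and no longer called. The share of cells with a Tfrc count after thinning each cell to 20000 counts was 21.9% in cycling cells and 10.6% in Procr+ non-cycling cells. Cells with 6 or more G2/M markers had 36.6 CPM, a log2 ratio of 1.41, and were higher in 22 of 30 libraries. Those with S-phase markers alone had 21.4 CPM, a ratio of 0.67, and were higher in 21 of 38. Erythroid markers summed to 193 CPM in cycling cells, against 69.2 CPM in Procr+ non-cycling cells, and their part in the Tfrc difference was not tested.

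Among other lineages, Tfrc had 94.5 CPM in neutrophil-like, 84.7 CPM in T-like, 54 CPM in dendritic-like, 33.3 CPM in B-like and 29.5 CPM in plasma-like cells, against 13.1 CPM in Procr+ non-cycling cells. It was higher than in Procr+ cells of the same library in 8 of 13 libraries. The neutrophil-like and T-like intervals, 89.6 to 99.5 and 77.3 to 92.7 CPM, overlap, as do those of B-like and plasma-like cells.

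Slc11a2 (chr15:100387898-100425072, minus strand), the endosomal iron carrier, was highest in erythroid-like cells. Its level was 64.7 CPM (59.0 to 70.7) in erythroid-like cells, 37.6 CPM (32.6 to 43.0) in macrophage-like cells, 33.2 CPM (29.1 to 37.7) in cells with stem and erythroid markers, 14.3 CPM in cells with stem and macrophage markers, 12.0 CPM in cycling cells, 11.0 CPM in other lineages and 9.05 CPM in Procr+ non-cycling cells. A count was found in 24 of 29 erythroid-like cells, against 13.5% of Procr+ non-cycling cells, and the erythroid-like level was 69.4 CPM in the 25 cells with under 8 macrophage markers. The macrophage-like value was not a property of the class as a whole: it was 40.7 CPM in TP56 and 7.6 CPM in Lib1, 1 cell of TP56 held 46.9% of the counts, and the log2 ratio of 1.94 turned to -0.54 without TP56. In cells with stem and erythroid markers the ratio of 1.77 was 0.64 without Lib51 to Lib55.

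Ferritin was counted in nearly every cell. Fth1 (chr19:9980598-9985098, plus strand), the chain with ferroxidase activity, had 9809 CPM (9727 to 9892) in macrophage-like cells, 4676 CPM (4627 to 4725) in erythroid-like cells, 4168 CPM in cells with stem and macrophage markers, 3640 CPM in other lineages, 3610 CPM in cells with stem and erythroid markers, 2966 CPM in cycling cells and 3513 CPM (3507 to 3520) in Procr+ non-cycling cells. In the 25 erythroid-like cells with few macrophage markers it was 4370 CPM. Macrophage-like cells were the only class called among these, at a log2 ratio of 1.48, and both of their larger libraries were high, with 9927 CPM in TP56 and 7845 CPM in Lib1, above the highest of 61 libraries of Procr+ non-cycling cells, 4692 CPM. Other lineages ran from 2360 CPM in plasma-like to 4428 CPM in neutrophil-like cells among those with over 30 cells. Cycling cells were 0.24 lower on the log2 scale, under the 2-fold limit but in the same direction in 49 of 54 libraries.

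Ftl1 (chr7:45457944-45459884, minus strand), the light chain, had 3132 CPM (3086 to 3179) in macrophage-like cells, 1895 CPM in cells with stem and macrophage markers, 1225 CPM in other lineages, 1205 CPM in erythroid-like cells, 955 CPM in cells with stem and erythroid markers, 775 CPM in cycling cells and 1154 CPM (1150 to 1158) in Procr+ non-cycling cells. The 25 erythroid-like cells with few macrophage markers had 1154 CPM. Ftl1 was called in macrophage-like cells at a log2 ratio of 1.44, with 3181 CPM in TP56 and 2040 CPM in Lib1. In cycling cells Ftl1 was 0.57 lower on the log2 scale, and 51 of 54 libraries had that direction. Across all cells outside the lineage classes, Ftl1 was lower in cells with more S-phase markers, with 1233 CPM at 0 to 1 markers, 1066 CPM at 4 to 5 and 728 CPM at 10 to 12. With G2/M markers it was 1128 CPM at 0 to 1 and 657 CPM at 10 to 14. Over the same G2/M steps Tfrc had 13.3 CPM at 0 to 1, 39.1 CPM at 6 to 9 and 35.1 CPM at 10 to 14. The quartiles of Ftl1 over libraries were 695 and 927 CPM in cycling cells and 1029 and 1371 CPM in Procr+ non-cycling cells. The full range, 18.0 to 1588 CPM in cycling and 26.7 to 2176 CPM in Procr+ non-cycling cells, takes in the Ftl1 steps. Both low ends of the full range are Lib85.

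The low end of that range came from 3 libraries. In Procr+ non-cycling cells Ftl1 had 35.6 CPM in Lib83, 66.7 CPM in Lib84 and 26.7 CPM in Lib85, against 753 CPM in the lowest of the other 58 libraries. Over the 200 cells of those 3 libraries it was 43.7 CPM (40.9 to 46.7), against 1231 CPM (1227 to 1235) in the other libraries, 28.1-fold lower. No Ftl1 count at all was found in 67.5% of these cells, against 0.465% elsewhere. Fth1 was 3604 CPM in the same 200 cells, against 3507 CPM elsewhere, so the heavy chain did not share the gap. The processed pseudogene row Ftl1-ps1, which resembles Ftl1, was also low, with 9.55 CPM, against 64.0 CPM elsewhere. Of 1834 genes with at least 100 CPM in the other libraries, 16 (0.872%) were at least 10-fold lower in Lib83 to Lib85, among them Gpx4, a lipid peroxidase that guards against ferroptosis, with 3.38 CPM, against 441 CPM. Leaving the 3 libraries out moved the cycling ratio of Ftl1 to -0.61 and changed no call among the members. How the authors' counting treated reads that fit both Ftl1 and its near-identical copies is not stated, so the Ftl1 level is uncertain to that extent.

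**Figure D2:**
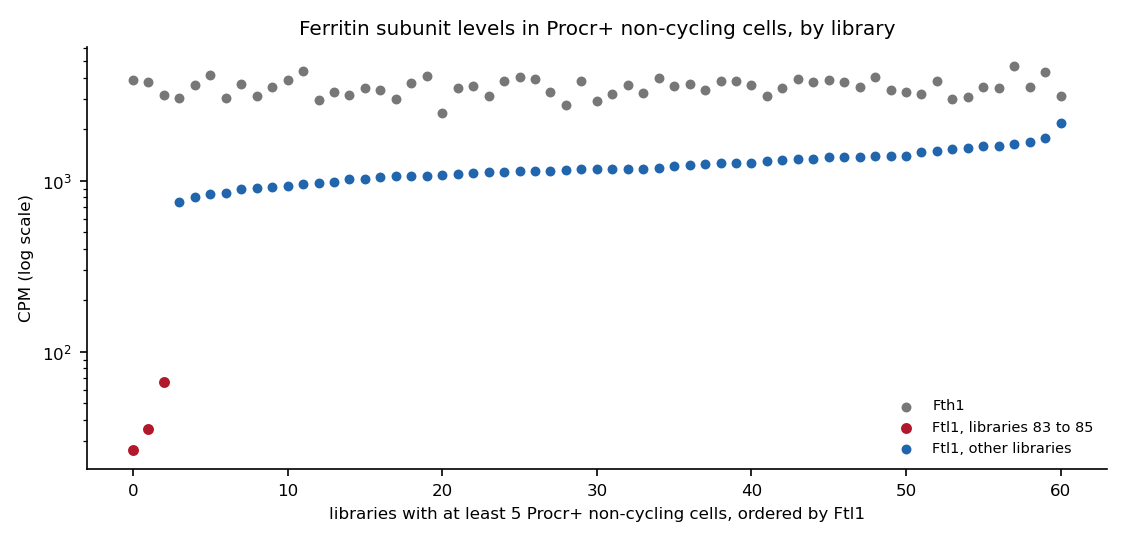
Pooled CPM (log axis) of Ftl1 and Fth1 in Procr+ non-cycling cells, 1 point per gene for each library with at least 5 such cells, ordered by Ftl1. Lib83, Lib84 and Lib85 sit at 26.7 to 66.7 CPM for Ftl1 while their Fth1 points lie among those of the other libraries.

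Slc40a1, ferroportin (chr1:45908068-45926523, minus strand), had the largest ratio of the 10 genes, 7.94 on the log2 scale in macrophage-like cells. It had 1532 CPM (1500 to 1565) in macrophage-like cells, 328 CPM (314 to 342) in cells with stem and macrophage markers, 168 CPM (159 to 178) in erythroid-like cells, 64.8 CPM (59.0 to 71.0) in cells with stem and erythroid markers, 38.8 CPM (36.8 to 40.8) in other lineages, 7.31 CPM (6.89 to 7.76) in cycling cells and 5.23 CPM (4.98 to 5.49) in Procr+ non-cycling cells. No neighbouring intervals overlap. All 36 macrophage-like cells had a count, with a median of 975 CPM per cell, and the 2 larger libraries had 1537 CPM (TP56) and 1449 CPM (Lib1), against a highest library of 33.9 CPM among Procr+ non-cycling cells. In 13 of 61 libraries the Procr+ non-cycling cells had no Slc40a1 count.

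A few cells held much of the erythroid-like Slc40a1. The 4 cells with 8 or more macrophage markers had 1002 CPM and the other 25 had 37.6 CPM, with a count in 19 of the 25, and 1 cell of TP56 held 50.1% of the class total. Without those 4 cells the log2 ratio over Procr+ non-cycling cells was 2.63, against 4.76 with them, and ferroportin message was called higher both ways. Among other lineages it was 71.3 CPM in neutrophil-like, 22.2 CPM in plasma-like, 12.5 CPM in T-like, 7.81 CPM in B-like and 5.49 CPM in dendritic-like cells. The 4 basophil- or mast-like cells, 3 of them in TP55, had 340 CPM (284 to 404), with a count in 3 of them. A single TP55 cell, with 5 macrophage markers, held 56.6% of those counts. Only 6 of 13 libraries had a higher level in other lineages than in their own Procr+ non-cycling cells.

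Hmox1 (chr8:75093621-75100589, plus strand), the inducible haem oxygenase, was the other gene of the macrophage classes. Its level was 1081 CPM (1054 to 1109) in macrophage-like cells, 650 CPM (630 to 670) in cells with stem and macrophage markers, 308 CPM (296 to 321) in erythroid-like cells, 44.4 CPM (42.3 to 46.5) in other lineages, 21.6 CPM (18.3 to 25.3) in cells with stem and erythroid markers, 16.8 CPM (16.2 to 17.5) in cycling cells and 24.9 CPM (24.4 to 25.5) in Procr+ non-cycling cells. The macrophage-like log2 ratio was 5.38, with 1023 CPM in TP56 and 935 CPM in Lib1, and 36 of 36 cells had a count. Of cells with stem and macrophage markers 31 of 32 had a count, with a median of 527 CPM per cell. In the 3 libraries with at least 5 cells of both kinds, Lib114, Lib115 and Lib116, these cells had 764, 588 and 743 CPM, against 119, 31.4 and 51.1 CPM in the Procr+ non-cycling cells of the same libraries. Slc40a1 had 267, 245 and 480 CPM there, against 13.3, 15.6 and 12.1 CPM.

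The erythroid-like value of Hmox1 was uneven within the class. The 4 cells with 8 or more macrophage markers had 2269 CPM, and the other 25 had 1.09 CPM (0.439 to 2.25), with a count in 2 of them. A single TP56 cell, with 13 erythroid and 12 macrophage markers, had 5462 CPM and held 89.9% of the Hmox1 counts of the class. The log2 ratio over Procr+ non-cycling cells was thus 3.58 with the 4 cells and -3.63 without them. The median erythroid-like cell had an Hmox1 level of 0.

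**Figure D3:**
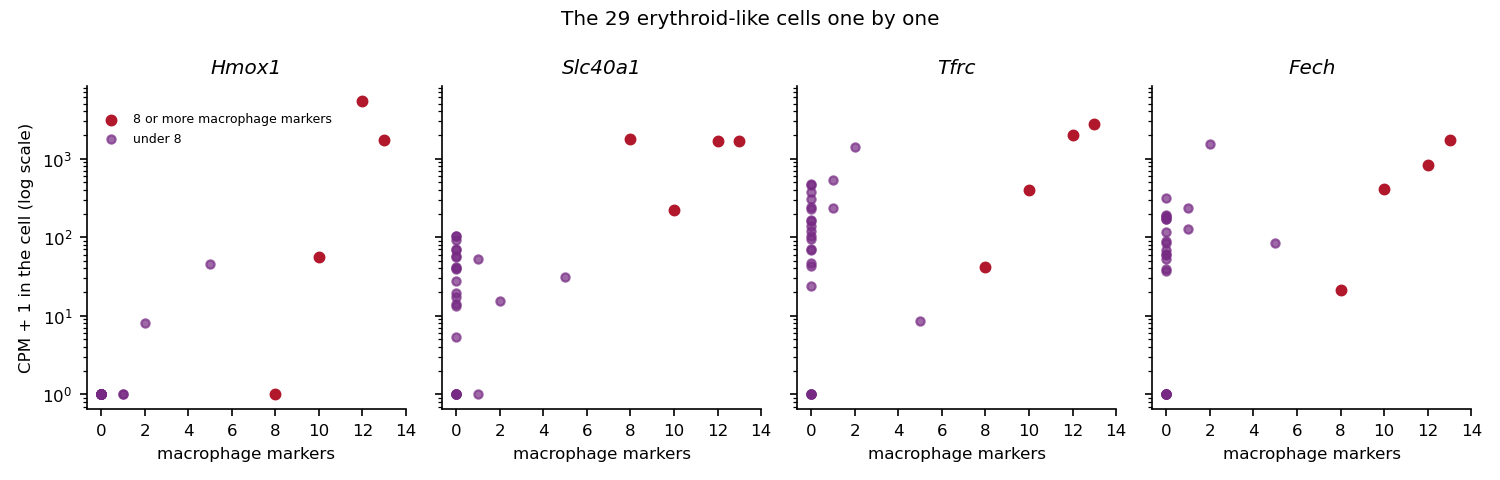
Each point is 1 of the 29 erythroid-like cells, with its number of macrophage markers on the x axis and the CPM + 1 of Hmox1, Slc40a1, Tfrc or Fech in that cell on a log y axis. The 4 red cells have 8 or more macrophage markers and 3 of them carry Hmox1, while 2 of the other 25 cells do. Tfrc is spread over both kinds.

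Hmox2 (chr16:4726361-4766742, plus strand), the constitutive oxygenase, was lower in the lineage classes than in Procr+ non-cycling cells. It had 6.65 CPM (4.68 to 9.17) in macrophage-like cells, 5.93 CPM (4.31 to 7.96) in erythroid-like cells, 11.1 CPM (10.1 to 12.2) in other lineages, 17.4 CPM in cells with stem and erythroid markers, 21.6 CPM in cycling cells, 23.4 CPM in cells with stem and macrophage markers and 24.3 CPM (23.8 to 24.9) in Procr+ non-cycling cells. It was called lower in macrophage-like cells (-1.73), erythroid-like cells (-1.87) and other lineages (-1.07). The intervals of the macrophage-like and erythroid-like levels overlap. In the 25 erythroid-like cells with few macrophage markers Hmox2 was 6.08 CPM. After thinning to 20000 counts, 9.68% of macrophage-like and 17.9% of erythroid-like cells had an Hmox2 count, against 33.0% of Procr+ non-cycling cells. Among other lineages it was lower in 9 of 13 libraries, with 7.28 CPM in neutrophil-like and 17.2 CPM in plasma-like cells. The neutrophil-like value did not hold within libraries: in the 2 with at least 5 cells of both kinds Hmox2 was higher in the neutrophil-like cells.

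Fech, ferrochelatase (chromosome 18), had 571 CPM (553 to 588) in cells with stem and erythroid markers, 223 CPM (212 to 234) in erythroid-like cells, 73.2 CPM (66.2 to 80.6) in macrophage-like cells, 64.9 CPM (58.7 to 71.5) in cells with stem and macrophage markers, 40.7 CPM (39.7 to 41.7) in cycling cells, 28.0 CPM (26.4 to 29.7) in other lineages and 39.9 CPM (39.2 to 40.6) in Procr+ non-cycling cells. The macrophage-like interval overlaps that of cells with stem and macrophage markers. Both erythroid classes were called, at log2 ratios of 3.81 and 2.45. With cells classed by clusters in place of the per-cell rule, macrophage-like cells and other lineages were also called higher, at 2.25 and 2.11. The ratio in erythroid-like cells was 1.87, from 149 CPM, without the 4 cells of 8 or more macrophage markers. Per cell the medians were 402 CPM in cells with stem and erythroid markers and 83 CPM in erythroid-like cells. In Procr+ non-cycling cells 2 single cells stood far out: 1 of Lib116 had 25573 CPM, from 261 of only 10206 counts, and 1 of Lib115 had 7073 CPM. The highest library of these cells was Lib115, at 160 CPM, against a median library of 35.5 CPM.

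Tfrc and Fech were both higher in cells with more erythroid markers, across all cells outside the macrophage classes. At 0 to 1 of 15 markers (3464 cells) Tfrc had 19.0 CPM and Fech 33.8 CPM. At 4 to 5 markers (81 cells) they had 82.4 and 154 CPM, of which 1 cell held 44.8% of the Tfrc counts (49.0 CPM without it), and at 12 to 15 markers (27 cells) 756 and 496 CPM. Slc11a2 had 9.6, 21.1 and 52.8 CPM at the same steps, and Hmox2 had 22.9, 14.8 and 10.0 CPM. Of the 4 erythroid-like cells of 8 or more macrophage markers, that of TP55, with 9 erythroid markers, is in none of these steps. The others are in the step of 12 to 15 erythroid markers. There the 2 TP56 cells had 2015 and 2784 CPM of Tfrc and 831 and 1721 CPM of Fech, and the 1 Lib3 cell had 393 and 406 CPM. The part of those cells in the steps was not tested. Among Procr+ non-cycling cells alone, the 25 cells with 4 to 7 erythroid markers had 366 CPM of Fech and 121 CPM of Tfrc, against 36.4 and 12.2 CPM in the 1422 cells with none. Single cells weighed heavily in those 25: 1 of Lib115 held 30.5% of the Fech counts and 1 of Lib87 held 54.8% of the Tfrc counts, and without them the levels were 259 and 61 CPM. The median of the 25 cells was 33.6 CPM for Fech and 0 for Tfrc.

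The iron sensors differed less between classes. Aco1 (chr4:40143081-40198338, plus strand) had 76.4 CPM (69.3 to 84.0) in macrophage-like cells, 33.0 CPM (29.0 to 37.4) in erythroid-like cells, 24.2 CPM in cells with stem and erythroid markers, 19.6 CPM in cells with stem and macrophage markers, 18.3 CPM in other lineages, 16.1 CPM in cycling cells and 18.7 CPM (18.2 to 19.2) in Procr+ non-cycling cells. In the 25 erythroid-like cells with few macrophage markers it was 24.8 CPM. Macrophage-like cells alone were called among these classes, at a log2 ratio of 1.98, although only 15 of 36 cells had a count and the libraries gave 68.0 CPM (TP56) and 175 CPM (Lib1). Ireb2 (chr9:54863789-54912530, plus strand) had 47.6 CPM (42.7 to 53) in cells with stem and erythroid markers, 31.5 CPM in other lineages, 30.2 CPM in macrophage-like cells, 19.6 CPM in cells with stem and macrophage markers, 19.2 CPM in cycling cells, 15.9 CPM (13.2 to 19.0) in erythroid-like cells and 21.6 CPM (21.1 to 22.1) in Procr+ non-cycling cells. Its one call among these classes, 1.11 in cells with stem and erythroid markers, was 0.67 without Lib51 to Lib55 and 0.88 without the cell of most counts. In the 25 erythroid-like cells with few macrophage markers Ireb2 was 9.51 CPM, a ratio of -1.10, past the limit for lower. Among the other lineages with over 30 cells, Ireb2 was called higher in neutrophil-like cells, at 49.5 CPM (1.16), with 1 of 2 libraries higher. It was called lower in B-like cells, at 6.36 CPM (-1.62), with 0 of 1 libraries higher. Aco1 was called lower there in B-like cells, at 5.78 CPM (-1.54), and T-like cells, at 8.76 CPM (-1.01). For Aco1 0 of 1 and 1 of 2 libraries were higher.

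**Figure D4:**
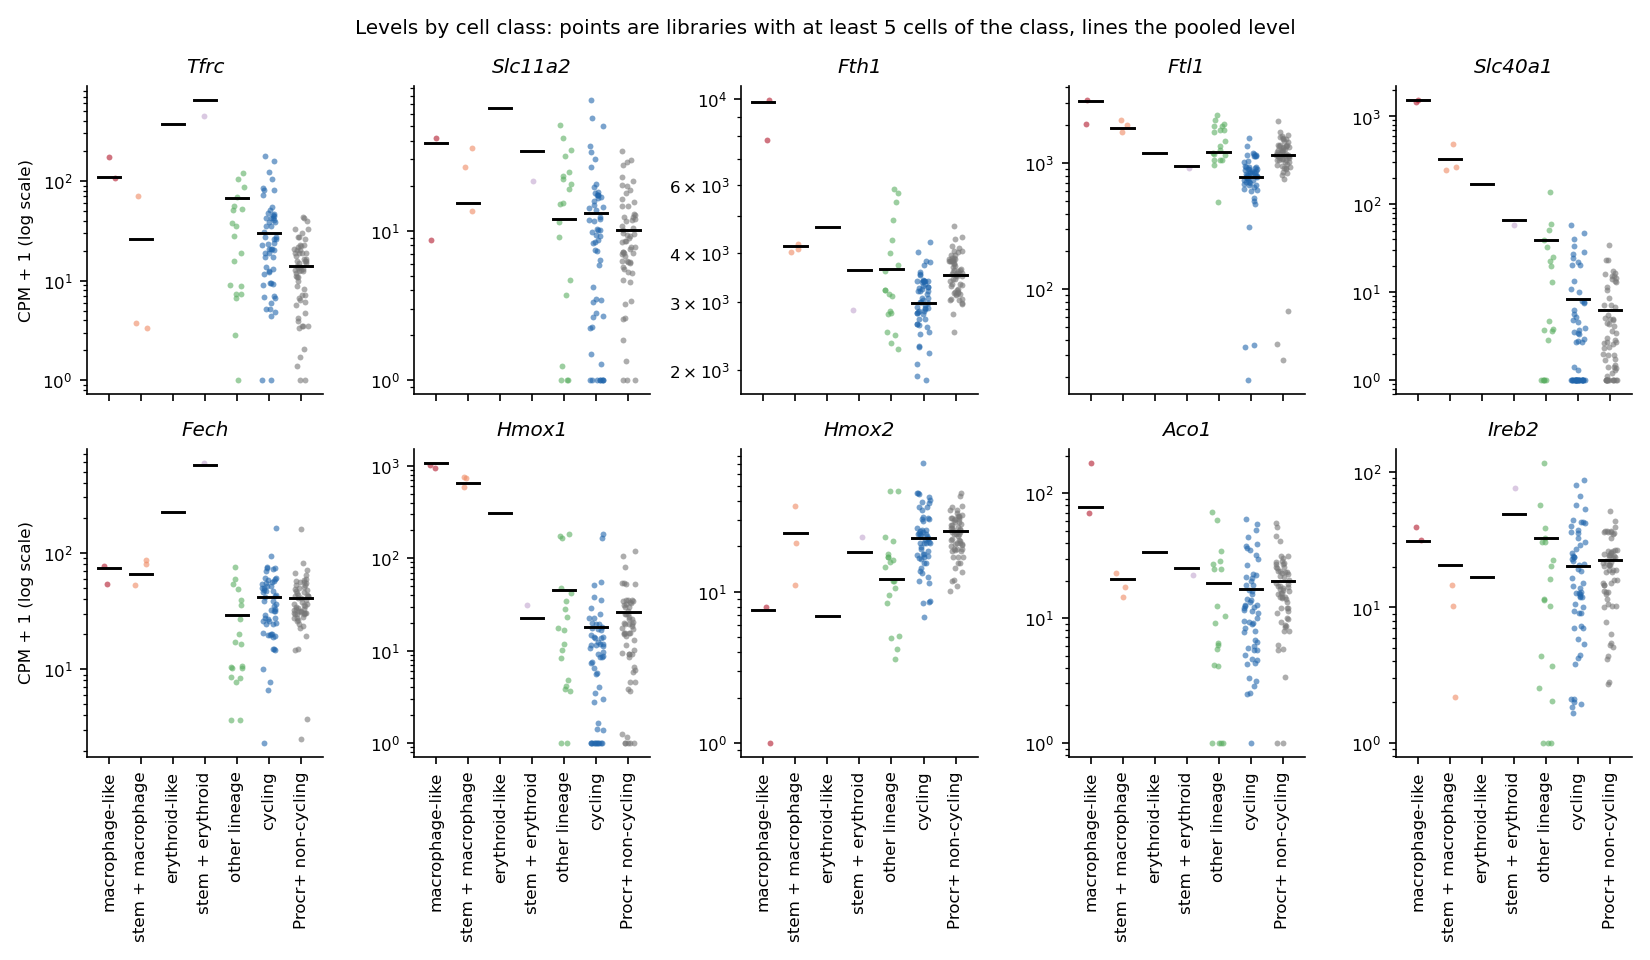
For each of the 10 genes, points give the CPM + 1 (log axis) of every library with at least 5 cells of a class, and black lines the pooled level of the class, with Procr+ non-cycling cells at the right. Library points of Hmox1 and Slc40a1 in macrophage-like cells lie above every Procr+ non-cycling library, while those of Tfrc in cycling cells overlap the Procr+ range.

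Within Procr+ non-cycling cells, Hmox1 and Slc40a1 followed the number of macrophage markers in the cell. Hmox1 had 10.3 CPM in the 1402 cells with none, 22.5 CPM with 1, 43.6 CPM with 2, 90.5 CPM with 3, 164 CPM with 4 to 5 and 215 CPM with 6 to 7. The class with stem and macrophage markers, which needed 8 or more macrophage markers, had 650 CPM. That class was not selected on Procr or cycling: 87.5% of its 32 cells had a Procr count and 5 met the cycling rule. Slc40a1 had 2.4, 3.5, 7.4, 22.3, 39.4 and 56.3 CPM at the same 6 steps. At the lowest and highest of these steps 12.8% and 63.2% of cells had an Hmox1 count, and 6.8% and 63.2% a Slc40a1 count. Hmox2, the other oxygenase, had 24.5 CPM at 0 markers and 21.2 CPM at 6 to 7. Both in Lib112 to Lib116 (5.0, 60.9 and 240.5 CPM at 0, 1 to 3 and 4 to 7 markers) and in the remaining libraries (10.6, 26.2 and 124 CPM) Hmox1 kept the same order.

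**Figure D5:**
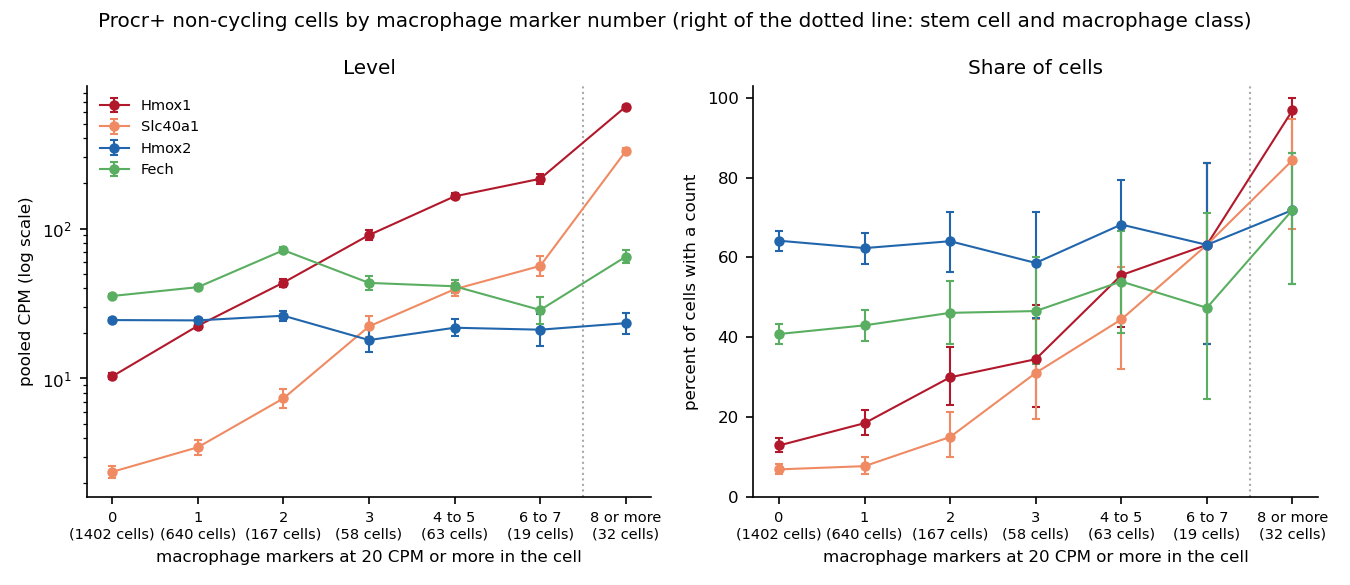
Pooled CPM (left, log axis) and percent of cells with a count (right) of Hmox1, Slc40a1, Hmox2 and Fech in Procr+ non-cycling cells grouped by the number of macrophage markers, with 95% intervals for counting error, and to the right of the dotted line the 32 cells with stem and macrophage markers. Hmox1 and Slc40a1 climb through every step and have 650 and 328 CPM in those 32 cells, which were not selected on Procr or cycling. Hmox2 stays between 18.0 and 26.2 CPM.

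Most Procr+ non-cycling cells had no Hmox1 count. A count was found in 415 of 2349 cells (17.7%), and after thinning in 10.5%, against 10.8% of T-like cells (4 of 37, interval 3.03 to 25.4), a lineage with no known part in haem recycling, whose median depth was 31319 counts before thinning. Of the T-like counts 48.1% came from 1 cell with 6 macrophage markers. The share over all Procr+ cells, not above the T-like one, is not read here as expression in these cells as a whole. The 140 cells (5.96%) with 3 or more macrophage markers held 38.0% of the Hmox1 counts and 44.6% of the Slc40a1 counts. Slc40a1 was found in 20.2% (interval 16.5 to 24.4) of cells with an Hmox1 count and in 7.45% (6.32 to 8.71) of those without, at median depths of 147944 and 118600 counts. Tfrc-positive cells likewise had Fech more often, in 50.5% against 39.7% of cells without Tfrc, at 144528 and 116209 counts. How far depth set these differences was not tested.

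Between Procr+ subsets the log2(CPM + 1) ratios were under the 2-fold limit and uneven over libraries. Cells with Vwf, the gene of a subset inclined to platelets, had 9.87 CPM of Slc40a1, against 4.56 CPM in the other Procr+ cells, and were higher in 12 of 22 libraries. Hmox1 was 36.4 CPM with Vwf, against 23.3 CPM, yet higher in only 7 of the 22 libraries. In the 125 cells with Slamf1 (CD150) but no Cd34 or Vwf, Hmox1 had 35.8 CPM, against 24.3 CPM, and was higher in 4 of 7 libraries. Fth1 differed by -0.05 and -0.02 on the log2 scale in these subsets, at 3400 CPM, against 3530 CPM, with Vwf and at 3475 CPM, against 3515 CPM, in the Slamf1 subset.

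The wider iron and haem pathway was read from 67 further genes in 8 lists, 64 of them in the matrix. In erythroid-like cells 22 of the 52 at the level minimum were higher and 2 lower, where 15.6% and 26.6% of all tested genes were. In cells with stem and erythroid markers 21 of 51 were higher and 0 lower, where 19.8% and 11.5% of all tested genes were. Haem synthesis gave the most higher calls in both: 7 of 10 genes were higher in erythroid-like cells and 9 of 10 in cells with stem and erythroid markers, with median log2 ratios of 2.27 and 1.86, against -0.19 and 0.01 for all tested genes. Alas2, which starts haem synthesis in red cells, had 287 CPM in cells with stem and erythroid markers, against 4.74 CPM in Procr+ non-cycling cells. Slc25a37 (mitoferrin 1), the mitochondrial iron importer of red cells, had 843 CPM, against 32.6 CPM, and Cpox, a later enzyme of the pathway, 267 CPM, against 11.1 CPM. The 9 haem synthesis genes also stayed called without Lib51 to Lib55.

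In erythroid-like cells the 3 largest ratios belonged to Cp (4.76), Cd163 (4.24) and Blvrb (3.93). Cp, a copper ferroxidase of iron export, and Cd163, the macrophage receptor for haemoglobin bound to haptoglobin, stood at 201 and 637 CPM in the 4 cells with 8 or more macrophage markers, against 0 counts (an upper bound of 0.575 CPM) and 1.56 CPM in the other 25. Blvrb, a biliverdin reductase abundant in red cells, did the reverse, with 724 CPM in the 4 cells and 1753 CPM in the 25. Without the 4 cells 16 of the 22 higher calls remained, with Alas2, Cd163, Cp, Hfe, Slc25a37 and Trf lost, in a total of 18, and lower calls numbered 9 in place of 2. Hscb and Por, a helper of iron-sulphur cluster assembly and a reductase that feeds haem oxygenase, were the 2 genes lower with all 29 cells, at -1.24 and -1.13.

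Macrophage-like cells had 21 of 51 genes of the lists higher and 10 lower, where 26% and 31.6% of all tested genes were. Cp had 214 CPM, against 0.0405 CPM in Procr+ non-cycling cells, Hfe, a partner of the transferrin receptors, had 327 CPM, against 7.94 CPM, and Cd163 had 129 CPM, against 3.70 CPM. Tfr2, the second transferrin receptor, had 4.49 CPM, against 96.3 CPM, Abcg2, a porphyrin exporter that marks stem cells, had 11.5 CPM, against 136 CPM, and Isca2, of iron-sulphur cluster assembly, had 13.5 CPM, against 92.9 CPM. Of 12 mitochondrial iron and iron-sulphur genes 6 were lower and 2 higher, against the same 31.6% and 26% of all tested genes. The balance turned without TP56, which leaves 13 cells: 15 genes were higher, 12 of them among the 21, and 19 were lower, 9 of them among the 10. Cp was among the calls lost, and haem synthesis had 1 gene higher and 5 lower, in place of 3 and 0.

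Cells with stem and macrophage markers had 7 of 49 list genes higher and 2 lower, where 10.3% and 6.5% of all tested genes were, led by Cd163 (3.59), Trf, the gene of transferrin itself (2.30), and Hp, haptoglobin (1.61), with Aifm2 (-1.95) and Nfs1 (-1.11) lower. Without Lib112 to Lib116, which leaves 8 cells, 5 of these 7 were still among 16 genes called higher, 4 were lower and Nfs1 was not among them. Other lineages had 7 of 47 higher and 10 lower, where 17.1% and 16.3% of all tested genes were. Hp had 445 CPM there, against 16.3 CPM in Procr+ non-cycling cells, and Slc7a11, a cystine carrier, and Flvcr1, a haem exporter, followed at 3.05 and 2.32, with Abcg2 (-3.03), Tfr2 (-2.08) and Hscb (-1.86) lowest. In cycling cells 1 of 44 was higher, Hp with 36.3 CPM, against 16.3 CPM, and 0 were lower, where 5.37% and 2.32% of all tested genes were.

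Genes with the most similar pattern to a member were ranked by Pearson's r of log2(CPM + 1) over 197 sums of cells by class and library, in 11 classes and among 11395 genes. The sums share libraries and differ in depth, so r is a description. The classes were set by marker genes, which therefore differ between the sums by construction. For Hmox1 the 5 closest were C1qb (0.61), Cd5l (0.61), Fcna (0.60), C1qa (0.60) and Vcam1 (0.59), 4 of them macrophage markers, and Slc40a1 ranked 7th at 0.55. Slc40a1 was closest to Vcam1 (0.68), Ear2 (0.65), Pilrb1 (0.62), Slc11a1 (0.62) and Gm21188 (0.62). Correlations were lower for Tfrc, led by Atp8b4 (0.45), Arf6 (0.42), Cebpb (0.42), Cybb (0.41) and Ly6d (0.40), and for Fech, with Npepl1 (0.44), Psmd5 (0.42), Crnkl1 (0.41) and Bcl2l1 (0.39) among its closest. Fth1 was closest to Arpc5 (0.47), Retnlb (0.45), Tlr8 (0.44), Il1a (0.44) and Itm2b (0.44).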

How the data were processed

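Per the labels' protocols, single cells of transplanted mice were profiled by STRT-seq, a form of Smart-seq2 that enriches 3′ ends. The authors deposited whole-number counts per gene and cell. The tools HTSeq 0.9.1, HISAT2 2.1.0 and Trimmomatic 0.36 and the build GRCm38 come from the submitters' processing notes. Not given in the sources used here is whether reads or molecules were counted, and whether by strand. Amplified copies are not independent molecules, so intervals can be too narrow. Of 4288 columns, 17 (1 library) were not used here. The other 4271 cells, in 67 libraries of 22 to 92 cells, left 4185 after the filters, with 1579 to 709960 counts and a median of 122013.

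Counts were summed per class and scaled to CPM, with a pseudocount of 1 CPM for ratios. Shares carry Clopper-Pearson 95% intervals. A cell's class needed 8 of 15 erythroid, 8 of 15 macrophage, 5 of 9 T, 6 of 11 B, 6 of 12 dendritic, 6 of 8 plasma, 9 of 12 megakaryocyte, 5 of 10 basophil and mast or 9 of 14 neutrophil markers and under 3 of 10 stem cell markers (3 or more for the mixed classes); cycling needed 8 of 12 S or 6 of 14 G2/M markers. Lineage cells could also be cycling. These limits were set after seeing the data. Cells were sorted singly, and no doublet caller was run.

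The members and lists were chosen with earlier results of these data known. Named genes are the members, up to 3 list genes each way per class with the largest ratios among those called, and the 5 genes closest to each of 5 members, of which 1 is not reported here. Of the 19224 symbols, 19071 matched GENCODE M21. The ratios and the 2-fold call were checked on simulated counts of whole classes. The class rule was not checked on simulated cells. Python 3.11.15, numpy 2.4.6, pandas 2.3.3, scipy 1.17.1, scanpy 1.11.5 and matplotlib 3.10.9 were used.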

Additional observations from a re-analysis of the deposited data

How the results depend on the processing

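The 12 counts of members called were recomputed under 14 alternatives, 5 of them chosen after seeing the data (leaving out Lib83 to Lib85, Lib112 to Lib116, Lib51 to Lib55, the erythroid-like cells of 8 or more macrophage markers, or each gene's top cell). Of 164 values 152 were within 1.5 times the reported count. Counts higher in cycling cells (1 reported) were 0 with Leiden clusters in place of the per-cell rule, 0 without Lib22 and 0 with a pseudocount of 10 CPM, and counts lower (0 reported) were 2 with Leiden clusters. Erythroid-like counts lower (1 reported) were 2 with Leiden clusters, 3 without the cells of 8 or more macrophage markers and 2 without the top cell. Counts higher were 3, against 5, for cells with stem and erythroid markers without Lib51 to Lib55, and 4, against 2, for cells with stem and macrophage markers without Lib112 to Lib116. The count lower in other lineages (1 reported) was 0 with each cell weighted equally, 0 with Leiden clusters and 0 with a pseudocount of 10 CPM.

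Among the 25 called log2 ratios 3 values changed sign. Hmox1 in erythroid-like cells was -3.00 with Leiden clusters and -3.63 without the cells of 8 or more macrophage markers. Slc11a2 in macrophage-like cells was -0.54 without TP56. Sign changes of uncalled ratios were not counted. Some occurred with Leiden clusters: Fech in other lineages was 2.11, against -0.50, and Slc40a1 in cycling cells was -1.28, against 0.42. Hmox1 in erythroid-like cells was 0.42 without its top cell. Tfrc in cycling cells was 0.68 with Leiden clusters and 0.74 with a pseudocount of 10 CPM. Tfrc in cells with stem and macrophage markers, uncalled at 0.90, was 1.65 without Lib112 to Lib116. With Leiden clusters, Fech in macrophage-like cells was 2.25, against 0.86, and Hmox1 in cycling cells was -1.58, against -0.54. Leiden clustering gave no class with stem and erythroid or stem and macrophage markers, so those had no value. The 25 called ratios all stayed called with 2000 or 500 genes required, with 1 more marker required, without a level minimum and without mitochondrial and top genes in the scaling, which moved the median of all genes by 0.10 in macrophage-like cells. Apart from what construction shows (fewer cells or libraries), the cause was not tested. Thinning was applied to shares of cells only. No paired analysis was possible because the labels' replicate numbers cannot be tied to cells; directions within libraries are given with the ratios.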
